A study of Macaca mulatta with 8 samples.

Results

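B2M, APOL2 and APOBEC3C are 3 interferon-inducible genes of the rhesus macaque (Macaca mulatta), followed here in area 46 (A46), a prefrontal association area on the banks of the principal sulcus, and in the forelimb field of the primary motor cortex (M1). They were taken by name, and 4 probes matched them: A_01_P002071 for B2M (NM_001047137), A_01_P002936 and A_01_P002522 for APOL2 (both XM_001083469) and A_01_P002884 for APOBEC3C (NM_001114359). They are 3 of the 835 genes that could be named and 4 of 20217 probes. Each area was measured on 4 single-colour (Cy3) Agilent arrays, numbered 1 to 4, of left-hemisphere tissue from 4 animals aged 2.6 to 2.7 years. The animals were bred in group cages and had received no experimental treatment, per the series' design text, and both areas were taken after perfusion with saline that held heparin. The labels do not say which animal gave which array, so p-values measure the spread between arrays of an area, which may in part be technical. The question was whether the 3 genes differ between A46 and M1 and, if so, whether the difference rests on 1 replicate number.

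Interferons are secreted alarm proteins that bind receptors on nearby cells and, through STAT and IRF transcription factors, switch on a large set of genes that limit infection. Many of these genes are also transcribed at a lower rate in tissue without infection. B2M encodes beta-2-microglobulin, the light chain that MHC class I molecules need to reach the cell surface. In the brain it is expressed by neurons, glia and vessels, and their levels were not compared here. APOL2 encodes an intracellular member of the apolipoprotein L family, whose human genes respond to inflammatory cytokines, and APOBEC3C encodes a cytidine deaminase that in human cells restricts retroelements and some retroviruses. APOL2 and APOBEC3C belong to families of closely similar genes. Whether their probes also bind transcripts of relatives was not tested, since probe sequences were not used here.

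A level below is the log2 intensity of a probe minus the 75th percentile of its array, averaged over the probe's 2 spots, and a difference is A46 minus M1 in log2 units. Levels of different probes cannot be compared with each other. The 75th percentile lay between 1232 and 2008 scanner units, 71.4% to 77.3% of the probes of an array were well above background, and no spot was saturated. All 4 probes were well above background on all 8 arrays. Precision is limited by how few arrays there are. The 2 spots of a probe differed by a median of 0.0681 to 0.167 log2 units on an array, most on A46 replicate 1, which also had the most spots called outliers (220).

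None of the 3 genes passed the limma test between the areas after adjustment over all 14698 tested probes, of which 0.184% (27) passed in either direction. The mean of each of the 4 probes was lower in A46, as it was for 47.4% of all tested probes. B2M was the gene with the same sign in every same-numbered pair of arrays. In APOL2 the difference came from the pairs numbered 1 and 3, on both of its probes, and in APOBEC3C it was smaller than the distance between the arrays numbered 2 and the rest.

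B2M was 1.33-fold lower in A46, and the areas overlapped. Its level was 4.45, 3.98, 4.20 and 3.86 on A46 arrays 1 to 4, against 5.17, 4.42, 4.50 and 4.04 on M1 arrays 1 to 4. The highest array was M1 replicate 1 and the lowest A46 replicate 4. In both areas the array numbered 1 was the highest and the array numbered 4 the lowest. The means were 4.12 ± 0.26 in A46 and 4.53 ± 0.47 in M1 (SD, n = 4 each), a difference of -0.41 ± 0.24 SE (95% interval -0.96 to 0.14, limma adjusted p = 0.700).

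Within the same-numbered pairs B2M differed by -0.72, -0.44, -0.30 and -0.18 for numbers 1 to 4. It was thus lower in A46 in 4 of 4 pairs, as were 16.2% of all tested probes, while 17% were higher in 4 of 4. With the replicate number as a block the standard error was 0.11 (95% interval -0.69 to -0.13) and the limma adjusted p 0.118, in a fit where 2.59% of the probes passed, 1.61% as lower in A46. The two-sided exact permutation test over the 8 arrays gave p = 0.171, and the exact sign-flip test over the pairs gave p = 0.125, the smallest it can give with 4 pairs. The pair numbered 1 held the widest gap, and without it the difference was -0.31 ± 0.10 blocked SE (limma adjusted p = 0.287). Without M1 replicate 1 alone it was -0.20 ± 0.19 SE. The 2 spots of B2M on an array differed by 0.02 to 0.17 log2 units.

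**Figure D1:**
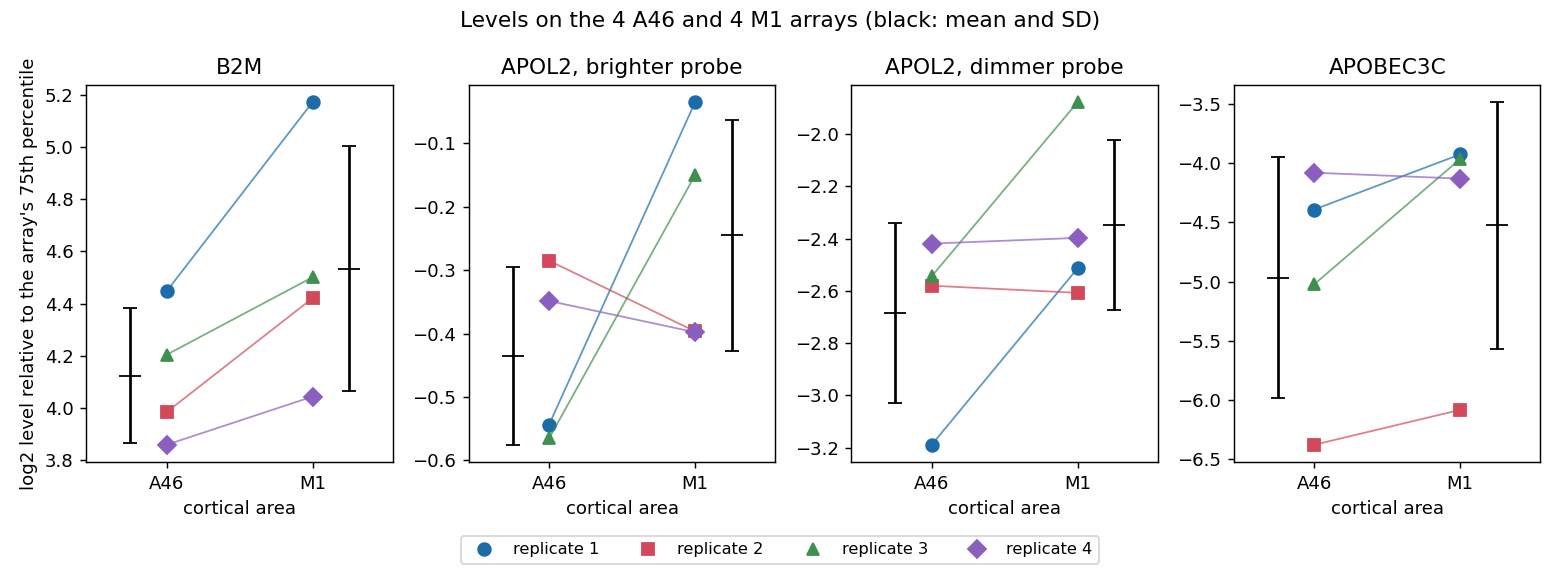
Levels of the 4 probes (vertical axis, log2 relative to the array's 75th percentile) on the A46 arrays (left) and M1 arrays (right), with lines joining arrays of the same replicate number and black bars for mean and SD (n = 4). All 4 lines of B2M run upward to M1. Those of both APOL2 probes run steeply upward for replicates 1 and 3 and change less for 2 and 4, where those of the brighter probe run downward. Both arrays numbered 2 stand far below the others for APOBEC3C.

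The brighter APOL2 probe, A_01_P002936, was 1.14-fold lower in A46, and the areas overlapped. Its level was -0.54, -0.29, -0.57 and -0.35 on A46 arrays 1 to 4, against -0.03, -0.40, -0.15 and -0.40 on M1 arrays 1 to 4. The A46 arrays 1 and 3 were the lowest of the 8 and the M1 arrays 1 and 3 the highest, while the arrays numbered 2 and 4 lay between them. The means were -0.44 ± 0.14 in A46 and -0.24 ± 0.18 in M1 (SD, n = 4 each), a difference of -0.19 ± 0.13 SE (95% interval -0.49 to 0.11, limma adjusted p = 0.775, exact permutation p = 0.171).

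The dimmer APOL2 probe, A_01_P002522, had levels of -3.19, -2.58, -2.54 and -2.42 on A46 arrays 1 to 4, against -2.51, -2.61, -1.88 and -2.40 on M1 arrays 1 to 4. The lowest array was A46 replicate 1 and the highest M1 replicate 3, and the other 6 arrays lay within a narrow band. The means were -2.68 ± 0.34 in A46 and -2.35 ± 0.33 in M1 (SD, n = 4 each), a difference of -0.33 ± 0.22 SE (95% interval -0.83 to 0.16, limma adjusted p = 0.750, exact permutation p = 0.257). It was -0.17 without A46 replicate 1, -0.18 without M1 replicate 3 and -0.19 after normexp.

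Both APOL2 probes split the pairs in the same way. The brighter probe differed by -0.51, 0.11, -0.42 and 0.05 in the pairs numbered 1 to 4, and the dimmer one by -0.68, 0.03, -0.67 and -0.02. The pairs numbered 1 and 3 therefore carried the lower mean of A46, and those numbered 2 and 4 were close to 0. No label states the pairs, and the arrays numbered 3 correlated the least of the same-numbered ones. With the replicate block the limma adjusted p was 0.464 for the brighter and 0.296 for the dimmer probe, and the exact sign-flip p was 0.500 and 0.375 (smallest possible 0.125). Without the pair numbered 1 the brighter probe stood at -0.08, without the pair numbered 3 at -0.12, and without M1 replicate 1 alone at -0.12. After a normexp background correction it stood at -0.08, with -0.65 on A46 replicate 3 and -0.13 on M1 replicate 1 as its lowest and highest levels. A46 replicate 1 then stood at -0.27, above every array but M1 replicate 1. M1 replicate 3 stood at -0.43, beside A46 replicate 2 at -0.42 and M1 replicate 4 at -0.41. For the brighter probe the split of the pairs was thus less marked after normexp.

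The APOL2 values of A46 replicate 1 were the least certain. Its 2 spots read 770 and 1130 scanner units for the brighter probe, a gap of 0.55 log2 units, which is wider than the difference of that pair. Those of the dimmer probe read 128 and 173 units, a gap of 0.44. On the other 7 arrays the spots of the brighter probe differed by 0.09 to 0.21 and those of the dimmer probe by 0.01 to 0.15.

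APOBEC3C varied more between replicate numbers than between the areas. Its level was -4.39, -6.38, -5.02 and -4.08 on A46 arrays 1 to 4, against -3.93, -6.08, -3.97 and -4.13 on M1 arrays 1 to 4. Both arrays numbered 2 were lower than the other 6, which lay between -5.02 and -3.93. The means were -4.97 ± 1.02 in A46 and -4.53 ± 1.04 in M1 (SD, n = 4 each), a difference of -0.44 ± 0.62 SE (95% interval -1.85 to 0.96, limma adjusted p = 0.923, exact permutation p = 0.486).

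In the same-numbered pairs APOBEC3C differed by -0.47, -0.29, -1.06 and 0.05 for numbers 1 to 4. The pair numbered 3, whose pairing was the least sure, was the furthest apart, and the pair numbered 4 had the opposite sign. With the replicate block the standard error was 0.18 (95% interval -0.89 to 0.01, limma adjusted p = 0.242, exact sign-flip p = 0.250), and without the pair numbered 3 the difference was -0.24 ± 0.12 blocked SE. Without A46 replicate 2 alone, which leaves the low M1 array numbered 2 unmatched, it was 0.03, and without M1 replicate 2 alone it was -0.96. With array weights it was also 0.03.

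Averaged over both areas, APOBEC3C stood at -6.23 for number 2, against -4.16, -4.49 and -4.11 for numbers 1, 3 and 4, so that number 2 lay 3.33-fold below the nearest of the others. The spots read 15.9 and 17.1 scanner units on A46 replicate 2 and 18.2 and 19.4 units on M1 replicate 2, against 54.5 to 117 units on the other 6 arrays. The signal of the arrays numbered 2 was still 3.29-fold and 3.52-fold above the lowest signal well above background on the same array. Both were scanned on the first scan day together with M1 replicate 3, where APOBEC3C stood at -3.97. The part of the scan day in the low level was not tested. After normexp both arrays numbered 2 remained the lowest, at -4.32 in A46 and -4.19 in M1, against -4.07 to -3.41 on the other 6.

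**Figure D2:**
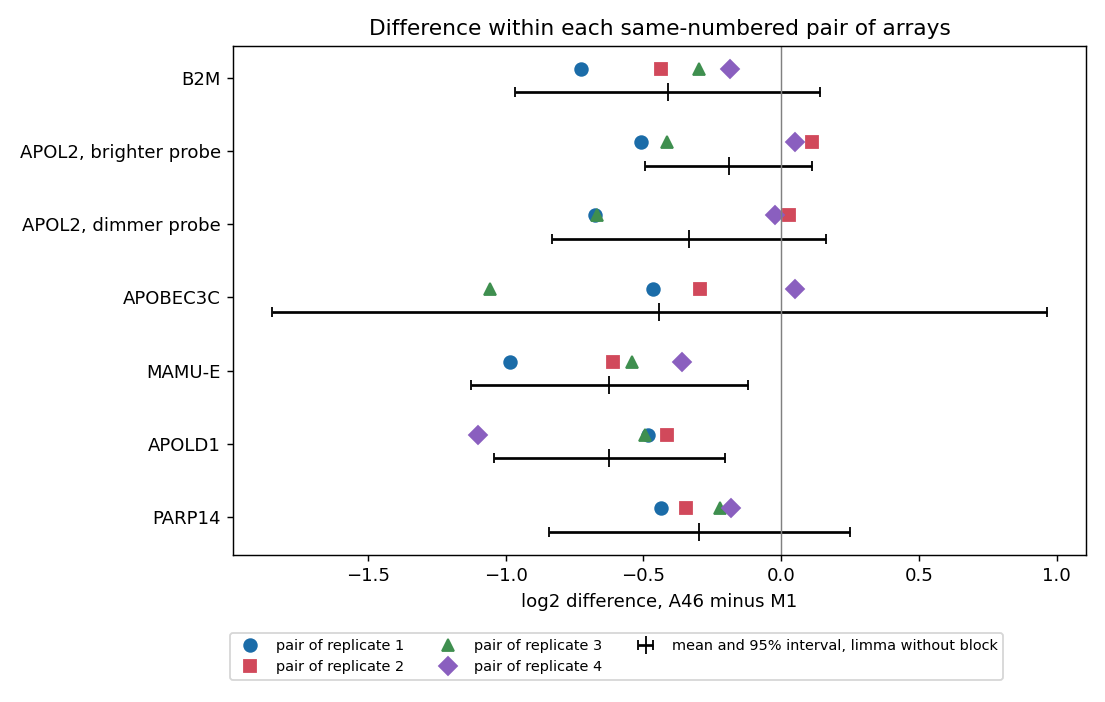
Difference between the A46 and the M1 array of the same number (horizontal axis, log2) for the 4 probes and for MAMU-E, APOLD1 and PARP14, with black bars for the limma mean and its 95% interval without the block. B2M, MAMU-E, APOLD1 and PARP14 lie left of 0 in 4 of 4 pairs, as do 16.2% of all tested probes. The APOL2 pairs numbered 2 and 4 lie near 0.

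The split between area and replicate number can be put as shares of the sum of squares over the 8 arrays. For B2M, area held 28.1% and replicate number 65.0%. For APOBEC3C the shares were 5.79% and 89.5%, and 86.9% of all tested probes had a lower share for replicate number. For the brighter APOL2 probe they were 31.5% and 3.46%, with 65.0% left to neither, and only 0.545% of the tested probes had a lower share for replicate number. The dimmer APOL2 probe stood between, with 24.9% for area and 49.7% for replicate number. Over all tested probes the median was 9.33% for area and 66.3% for replicate number. Replicate number splits the arrays into more groups than area does, so its share is the larger one even in noise. The rest, which has as many degrees of freedom as replicate number, held a median of 15.6%. Against the rest, variation with the replicate number was usual on these arrays.

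The arrays were scanned on 4 days, which cut across the areas. Within the first day, A46 minus M1 (1 array against 2) was -0.48 for B2M, -0.01 for the brighter APOL2 probe and -1.35 for APOBEC3C. Within the second day (1 against 1, on the same slide) it was -0.72, -0.51 and -0.47, and within the third (1 against 1) -0.18, 0.05 and 0.05. A46 replicate 3 was scanned alone on the fourth day and gives no such value. With the scan day as a block B2M stood at -0.46 ± 0.12 SE (limma adjusted p = 0.127), the brighter APOL2 probe at -0.14 and APOBEC3C at -0.67.

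Other genes of the pathway were read from 5 lists, of the interferon response, interferon signalling, MHC class I antigen presentation, and the APOL and APOBEC families. Of their 222 genes other than the 3 above, 14 could be named on the array and 10 were tested, and none of the APOBEC list was named. No list gene passed the limma test, with or without the replicate block, while 2 of 10 had an unadjusted p under 0.05 without the block (9.44% of all tested probes) and 3 of 10 with it (21.3%). In 8 of the 10 the difference was below 0 (47.4% of all tested probes), with a median of -0.22, against 0.01 over all tested probes. Without the pair numbered 1 it was below 0 in 5 of 10, with a median of 0.002, and without M1 replicate 1 alone in 6 of 10, with a median of -0.07.

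MAMU-E, the rhesus counterpart of human HLA-E and a class I heavy chain that pairs with beta-2-microglobulin, had the same direction as B2M. Its level was -0.45, -0.77, -0.97 and -0.58 on A46 arrays 1 to 4, against 0.53, -0.17, -0.43 and -0.22 on M1 arrays 1 to 4. The areas did not overlap, as in 6.46% of all tested probes (3.5% lower and 2.96% higher in A46), and M1 replicate 1 again stood highest. The difference was -0.62 ± 0.22 SE (limma adjusted p = 0.388; 0.0632 with the replicate block), and the pairs differed by -0.98, -0.61, -0.54 and -0.36 for numbers 1 to 4. With the replicate number as a random block the limma adjusted p was 0.0310, and with the block after normexp 0.0282. Of all 14698 tested probes these 2 fits called 984 and 487. Over all alternatives the limma adjusted p of MAMU-E ranged from 0.0282 to 0.728. B2M and MAMU-E both had their widest gap in the pair numbered 1 and their narrowest in the pair numbered 4. So did PARP14 of the interferon response list, at -0.44 and -0.18. MAMU-E was the only tested gene of the antigen presentation list, since CD1E was not well above background on any array. Whether the MAMU-E probe also binds transcripts of other class I genes was not tested.

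APOLD1, a relative of the APOL family known from vascular endothelium, was the only named gene of the APOL list apart from APOL2. It stood at -4.61, -4.18, -4.14 and -4.51 on A46 arrays 1 to 4, against -4.13, -3.77, -3.64 and -3.41 on M1 arrays 1 to 4. The areas did not overlap, as in 3.5% of all tested probes in this direction, though the highest A46 array and the lowest M1 array nearly touched. The difference was -0.62 ± 0.18 SE (limma adjusted p = 0.286; 0.0807 with the block; 0.0274 to 0.622 over all alternatives). After normexp it was -0.29 (0.581, and 0.271 with the block).

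Among the interferon response genes the 2 with the smallest p were PARP14, an ADP-ribosyltransferase, and IRF7, the transcription factor that amplifies type I interferon. PARP14 stood at -2.06, -2.49, -2.65 and -2.78 on A46 arrays 1 to 4, against -1.63, -2.14, -2.43 and -2.59 on M1 arrays 1 to 4. It was lower in A46 in 4 of 4 pairs, as were 16.2% of all tested probes. Its difference was -0.30 ± 0.24 SE (limma adjusted p = 0.831, and 0.132 with the block). Without M1 replicate 1, its highest array, the PARP14 difference was -0.11. IRF7 stood at -2.48, -2.95, -3.23 and -2.82 in A46, against -1.71, -2.59, -3.32 and -2.74 in M1 (difference -0.28 ± 0.32 SE, limma adjusted p = 0.898). Without M1 replicate 1, the highest array for IRF7, the difference was 0.01. TICAM1, the adaptor of the sensor TLR3 in interferon signalling, differed by -0.15 ± 0.29 SE (limma adjusted p = 0.946), and by 0.15 without A46 replicate 1.

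The remaining tested genes of these lists, the double-stranded RNA sensors OAS1 and EIF2AK2, the tryptophan-degrading enzyme gene IDO1, IFI27 and XAF1, had limma adjusted p from 0.898 to 0.998. OAS1, named here after its values were seen, shared the low level of APOBEC3C in the arrays numbered 2, at -4.61 in A46 and -4.52 in M1, but not the level of number 3, at -3.96 in A46 and -4.27 in M1. Its other arrays stood at -2.74 and -3.14 in A46 and -2.27 and -3.05 in M1. IDO1, also named after its values were seen, was high in number 2, at -3.45 in A46 and -3.52 in M1. M1 replicate 1 was nearly as high, at -3.56, while A46 replicate 1 was the lowest array, at -6.44. The others ran from -6.42 to -5.28. IDO1 was well above background on 3 of the 4 M1 arrays, and its difference was -0.72 ± 0.83 SE. GBP2 and TLR3 were not well above background on any array, and TRIM5, the retrovirus restriction factor, was so on 1 array of each area.

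M1 replicate 1 held the highest of the 8 values for 6 of the 10 tested list genes (IFI27, IRF7, MAMU-E, OAS1, PARP14 and XAF1), as for B2M and APOBEC3C, against 14.7% of all tested probes. This count was made after the values were seen and has no test.

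**Figure D3:**
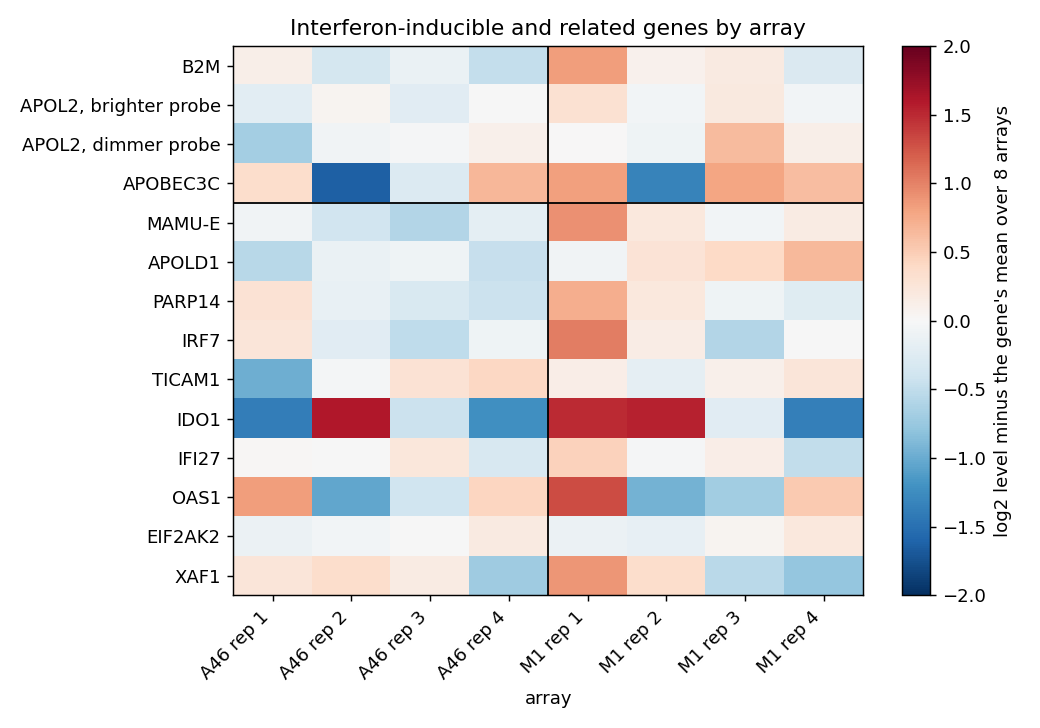
Levels of the 4 probes and the 10 tested list genes on each array, as log2 level minus the mean of the gene over the 8 arrays (colour), with A46 arrays left of M1 arrays. M1 replicate 1 is high for B2M, MAMU-E, PARP14, IRF7 and OAS1, and both arrays numbered 2 are low for APOBEC3C and OAS1.

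**Figure D4:**
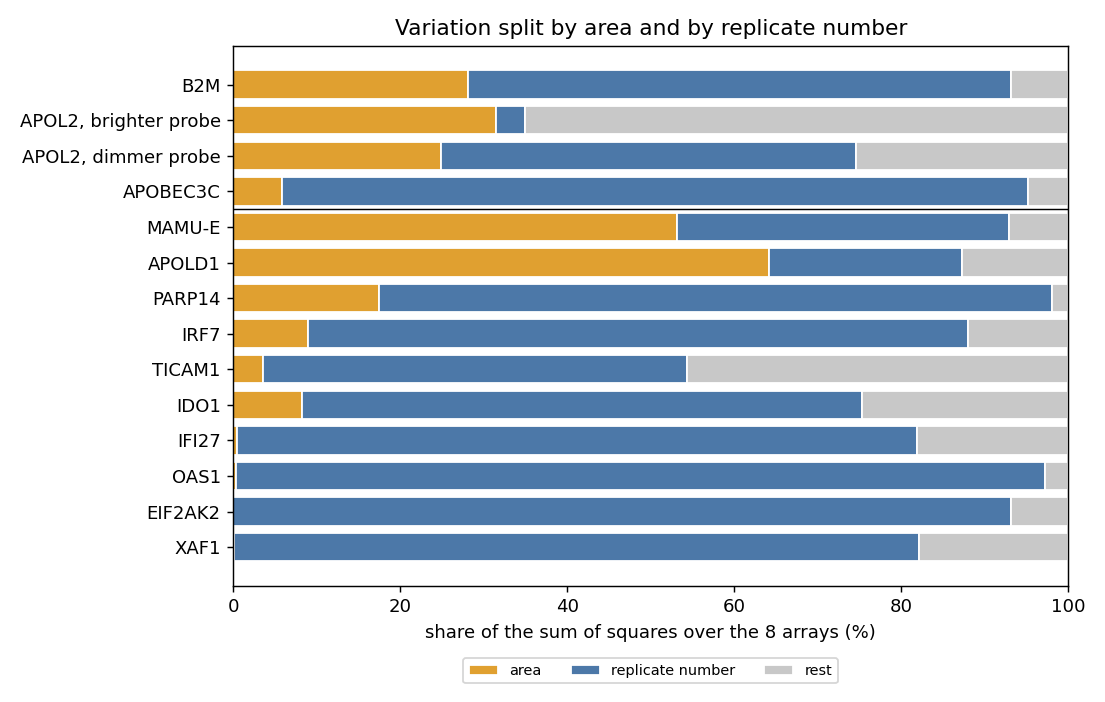
Shares of the sum of squares over the 8 arrays (horizontal axis, %) that go with area, with replicate number and with neither, for the 4 probes above the line and the 10 tested list genes below it. Replicate number holds the larger share over area in 8 of the 10 list genes, as in 84.3% of all tested probes. It splits the arrays into more groups than area does, so a larger share is in part set by the design.

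The named genes most like each member were sought by the root mean square difference between their centred levels over the 8 arrays, among 510 named genes well above background on all of them. For B2M the nearest was PARP14, at 0.16 log2 units, followed by SLC6A11, GMCL2 and AJUBA at 0.18 to 0.21, against a median of 0.48. For the brighter APOL2 probe they were PPP1R3D, GPR158, SPAG6 and RNF138, at 0.12 to 0.13 against a median of 0.32. The dimmer APOL2 probe lay at 0.28 from the brighter one, with 167 of the 510 genes closer. For APOBEC3C they were SLC15A2, FH, SLC43A1 and OVGP1, at 0.44 to 0.60 against a median of 0.97. SLC15A2, a peptide transporter, stood at -2.40 in A46 and -2.20 in M1 for number 2, against -1.18 to -0.91 in A46 and -1.32 to -0.92 in M1 for the other numbers. Like it, FH, SLC43A1 and OVGP1 had their lowest level of each area in number 2. These genes were picked by their likeness to APOBEC3C on the same arrays, so their low number 2 is largely set by the choice.

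The makeup of the tissue could be followed in few markers, and in bulk tissue fewer cells of a type and less RNA per cell cannot be told apart. None of the 12 microglia, 12 leukocyte, 8 neuron and 3 pericyte markers could be named, so that the neuronal identity of the tissue was not checked here. Of 8 oligodendrocyte markers 2 were tested. UGT8 ran from -4.02 to -3.35 in A46 and from -2.28 to -1.14 in M1 (limma adjusted p = 0.0624; 0.0287 with the block), and TSPAN2 from -5.63 to -5.51 in A46 and from -5.36 to -5.07 in M1 (0.287; 0.111 with the block). The difference of TSPAN2 was -0.38, and -0.12 after normexp. Of 8 endothelial markers 1 was tested, ACKR1, which ran from 1.17 to 1.93 in A46 and from 0.61 to 1.54 in M1 (limma adjusted p = 0.430; 0.0473 with the block). With the block after normexp the limma adjusted p of ACKR1 was 0.0619, with the scan day as a block 0.0708, and with the replicate block but without each pair in turn 0.0682 to 0.193. That of UGT8 was 0.0736 with the scan day as a block and 0.0285 to 0.168 without each pair in turn. The astrocyte marker FGFR3 and HBE1, a globin gene of the red blood cell list, differed by 0.05 ± 0.14 and 0.07 ± 0.34 SE. HBB and the HBA genes of that list could not be named, so the blood content of the tissue was not checked here. The other named globin gene, HBG2, was well above background on only 2 A46 and 3 M1 arrays and was not tested. It averaged -7.11 in A46 and -6.00 in M1, lower in A46 in 4 of 4 pairs. Neither oligodendrocyte marker overlapped between the areas, as in 3.5% of all tested probes in this direction. Both stood lower in A46 in 4 of 4 pairs, as did B2M, MAMU-E, APOLD1 and 16.2% of all tested probes. ACKR1 stood higher in A46 in 4 of 4 pairs, as did 17% of all tested probes. The part of these markers in the differences of B2M and MAMU-E was not tested.

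**Figure D5:**
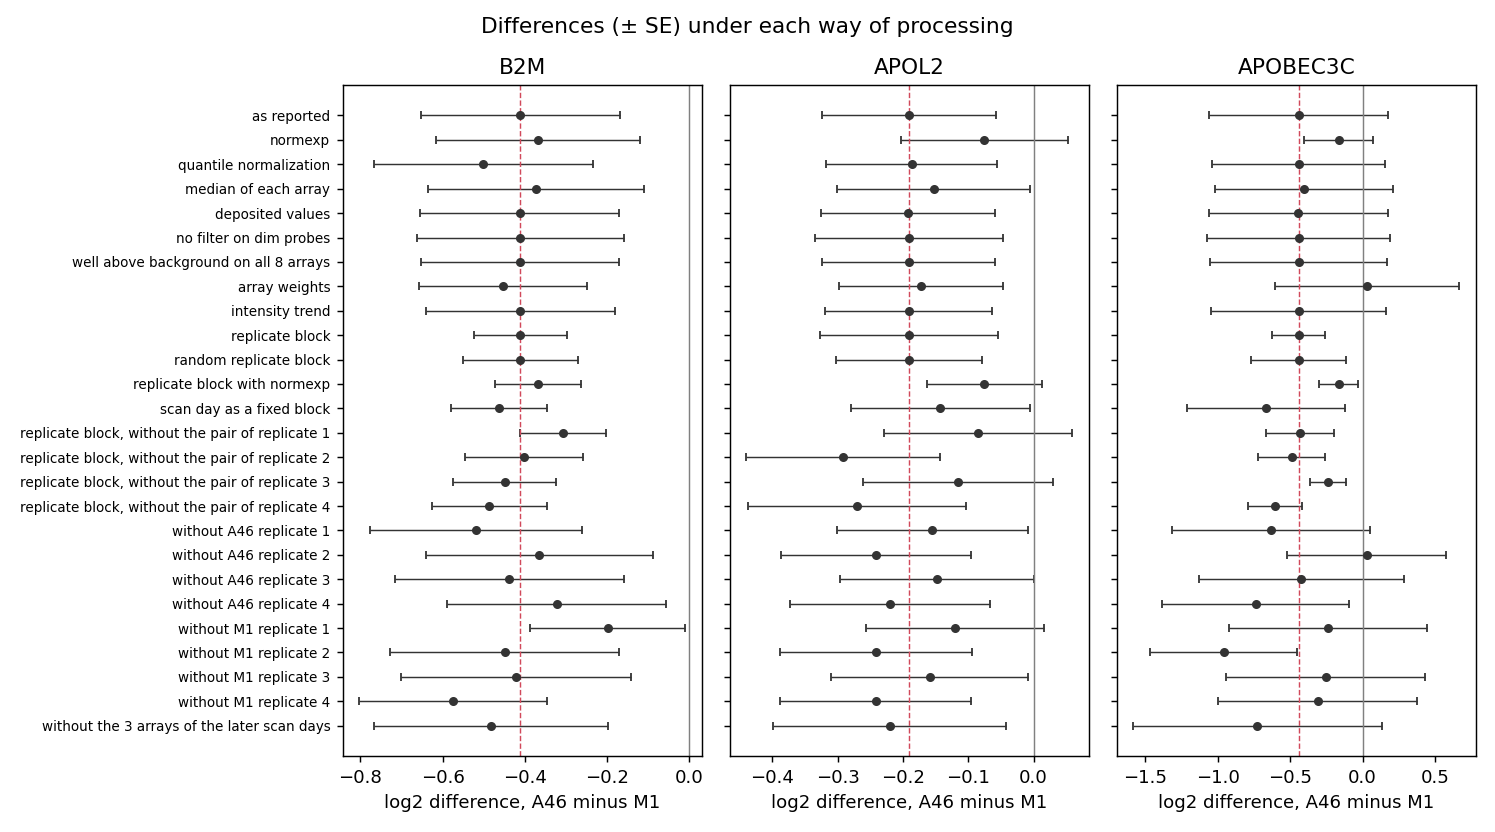
Difference A46 minus M1 (horizontal axis, log2, bars SE) for B2M, the brighter APOL2 probe and APOBEC3C under each way of processing (rows), with the reported value as a dashed red line and 0 in grey. B2M and APOL2 stay below 0 in every row, and APOBEC3C reaches 0.03 with array weights and without A46 replicate 2.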

How the data were processed

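The authors deposited 1 scanner file per array with spot intensities read by Agilent Feature Extraction 10.7.3.1, per the file headers, background-subtracted and detrended within the array but not normalized between arrays. Probes were designed on the rheMac2 build, per the file headers. The authors' deposited series table holds log2 values centred per probe, with column medians of -0.06 to 0.09. Differences between its columns follow the scanner values (slope 1.00), and no source used here gives its baseline. Per the labels, 500 ng of total RNA (integrity number 8.0 to 9.5) was amplified from an oligo(dT) primer.

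Of 41851 spots per array, 1417 control spots and 0 to 220 outlier spots were left out. The log2 processed signal was averaged per probe and shifted by the 75th percentile. A probe was tested if each of its spots exceeded background clearly on every array of either area. The test was limma 3.58.1 in R 4.3.3 (lmFit, eBayes, area as the only term, Benjamini-Hochberg over all tested probes, threshold 0.05). This fit was tried on simulated data with independent arrays, which covers neither the likeness of same-numbered arrays nor the blocked fits. Python 3.11.15 with pandas 2.3.3 read the tables. RefSeq accessions, stripped of versions, were looked up in a gene table of assembly T2T-MMU8v2.0, which named 898 of 20217 probes. Coordinates are not given, since the assemblies differ. Where a gene had 2 probes, the brighter stands for it.

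Deviations from the area mean correlated between same-numbered arrays with r = 0.726, 0.634, 0.169 and 0.858 for numbers 1 to 4, across probes, each over the 0.1 set as the limit, though A46 replicate 3 and M1 replicate 4 reached 0.481. The pairing comes from this check, since no label states it. For number 3 it is the least sure, since M1 replicate 3 correlated more with A46 replicate 2 (r = 0.259). The arrays numbered 1, 2 and 4 shared a scan day within their number, and those numbered 3 did not. The check therefore cannot tell a shared animal from a shared scan day. Named genes were the 3 members, list genes past the threshold or else the 2 with the smallest p per list, the 4 genes most like each member, and matched markers. The members and lists were chosen with earlier results of these data known. Alternatives were normexp (offset 50, on median signals), quantile and median scaling, fixed and random replicate blocks, array weights, scan day, an intensity trend, the authors' values, a filter over all 8 arrays or none, and leaving out arrays or pairs.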

Additional observations from a re-analysis of the deposited data

Results flagged for a closer look

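In 1 of 18 groups of 4 arrays, made of the 4 probes and of PARP14, IRF7, TICAM1, MAMU-E and APOLD1 in each area, a single array stood well apart from its group. About 0.9 such arrays would arise by chance. It was found for APOBEC3C in M1. A46 replicate 2, at -6.38, was the lowest array of A46 too, but its distance to A46 replicate 3 (-5.02) was not large enough against the range of that area. M1 replicate 2 stood at -6.08, against -4.13 to -3.93 on the other M1 arrays.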

How the results depend on the processing

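B2M stayed below 0 and above the threshold of 0.05 in all 25 alternatives (differences -0.57 to -0.20, limma adjusted p 0.114 to 0.946), and so did APOL2 in all 26, its other probe included (-0.33 to -0.08, 0.356 to 0.999). APOBEC3C did so in 23 of 25 (0.242 to 1.00). It was 0.031 with array weights and 0.028 without A46 replicate 2, and leaving out each array in turn gave -0.96 to 0.028. Of the list genes, IRF7 was 0.012 without M1 replicate 1 (-0.52 to 0.012 without each array in turn), and TICAM1 was 0.125 with array weights, 0.166 with the replicate block without the pair of replicate 1, and 0.148 without A46 replicate 1 (-0.32 to 0.148 without each array in turn). The replicate block alone changed no call of these genes. The count of list genes called was 0 as reported, 2 with the random replicate block (MAMU-E and APOLD1) and 1 with the block after normexp (MAMU-E). Of all 14698 tested probes these 2 fits called 984 and 487.

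The count of probes called, 27 as reported, was 41 with normexp, 45 with an intensity trend, 138 with array weights, 153 with the scan day as a block, 380 with the replicate block, 487 with the block after normexp and 984 with the random block. Without any filter on low signal it was 0 (1371 had an unadjusted limma p under 0.05), 0 without the 3 arrays of the later scan days (1159, chosen after seeing the data), and 0 to 6 without each array in turn (974 to 1799). In the blocked fit without the pair of replicate 1, 2, 3 or 4 it was 3, 0 (2402), 403 and 2. The cause was not tested. A random block for the slide could not be fitted, since only 1 slide held 2 arrays. APOBEC3C was the dimmest of the 3 genes against background on its arrays numbered 2, and normexp, whose offset shrinks differences of dim probes, gave -0.17 for it.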
